A study of Rattus norvegicus with 6 samples.

Results

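MiR-134 and miR-138 are neuronal microRNAs (miRNAs) known from work on dendritic spines, the small protrusions that carry most excitatory synapses. Their mature forms were followed by name in small RNA sequencing of rat cortical neurons. The count files list 649 mature miRNAs, of which 5 belong here: rno-miR-134-5p, rno-miR-134-3p, rno-miR-138-5p, rno-miR-138-1-3p and rno-miR-138-2-3p, where rno stands for rat. Cortical neurons of embryonic day 18 (E18) Sprague-Dawley rats were stimulated for 20 min, at 7 days in vitro (DIV) by the sample labels and earlier by a legend of the study, either with 100 ng/ml BDNF (brain-derived neurotrophic factor) or with the vehicle, 0.1% BSA. Each group had 3 samples, with the replicate numbers 1, 2 and 3 in their titles, which the methods describe as biological replicates. No group carried a genetic change, both sexes were used for the cultures, and fluorodeoxyuridine had been added to stop the division of non-neuronal cells. The comparison asks whether mature miRNA levels move during a short BDNF stimulus.

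A miRNA is cut from a hairpin precursor, first by Drosha and then by Dicer, and a strand of the resulting duplex is loaded into Argonaute, where it pairs with target mRNAs through its seed. Strands from the 5′ and the 3′ side of the hairpin are called 5p and 3p. MiR-134 is found in dendrites and represses Limk1, a kinase that acts on the actin cytoskeleton of spines, and BDNF is known to relieve this repression. MiR-138 represses Lypla1 (also called APT1), an enzyme that removes palmitate from synaptic proteins, and both miRNAs are known to restrain spine growth.

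The hairpins are shown because they set which counts can be told apart. Sequences and positions are those of RefSeq on the rat assembly GRCr8, matched by name, and mature strands are in capitals, the 5p strand first. RefSeq holds mature sequences for 583 of the 649 miRNAs, including all 5 described here.
Mir134: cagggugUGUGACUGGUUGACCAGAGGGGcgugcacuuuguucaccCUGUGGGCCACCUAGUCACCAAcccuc
Mir138-1: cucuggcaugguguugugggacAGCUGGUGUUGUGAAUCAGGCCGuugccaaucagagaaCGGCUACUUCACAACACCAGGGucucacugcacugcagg
Mir138-2: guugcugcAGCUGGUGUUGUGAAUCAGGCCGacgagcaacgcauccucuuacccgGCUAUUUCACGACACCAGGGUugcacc
Mir134 lies at chr6:134570313-134570385 on the plus strand, within the span of a long non-coding RNA gene, between Mir382 and Mir668 in the miR-379/miR-410 cluster. Mir138-1 lies at chr8:131178434-131178532 on the plus strand, in a region spanned by long non-coding RNA genes. Mir138-2 lies at chr19:10680133-10680214 on the minus strand, within the span of the protein-coding gene Slc12a3. Both Mir138 hairpins carry the same 5p sequence, so a count of miR-138-5p can come from either locus, whereas the 3p strands differ between the loci.

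The mature strands are given with the seed, bases 2 to 8, in capitals.
miR-134-5p: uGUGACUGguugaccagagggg
miR-134-3p: cUGUGGGCcaccuagucaccaa
miR-138-5p: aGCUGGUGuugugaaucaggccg
miR-138-1-3p: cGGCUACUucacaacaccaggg
miR-138-2-3p: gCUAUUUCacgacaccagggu
The 5 seeds all differ, and none is shared with another of the 583 listed miRNAs that have a RefSeq sequence. The 3p strands of miR-138 overlap by 20 bases without gaps, and 18 of these are identical. The differing bases are C7U and A13G, with the miR-138-1-3p base first, the position counted from 1 at the 5′ end of miR-138-1-3p and the miR-138-2-3p base last. MiR-138-1-3p has 2 extra bases at its 5′ end, which shifts its seed, and C7U lies within both seeds, so strands so alike have different seeds.

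The libraries held between 10374120 and 12533029 counts, and 10 RPM (reads scaled to the library total) stood for 103.7 to 125.3 reads. Normalized RPM are further divided by edgeR's TMM factor, which ran from 0.928 to 1.08 here. Across the 336 miRNAs tested, same-numbered control and BDNF samples departed from their group means alike, with r of 0.81, 0.49 and 0.89 for replicates 1 to 3. Fits with the number as a block (the replicate block) are given where they change a count. MiRNAs listed here as neuronal (miR-124, miR-9a, miR-128, miR-137 and miR-153, with counts for all 11 listed strands) took 348455 to 407004 RPM in control and 386916 to 425059 RPM in BDNF samples. Glial miRNAs (miR-21, miR-146a, miR-219a and miR-338, with counts for all 9 strands in at least one sample) took 5686 to 7412 RPM in control and 5724 to 7613 RPM in BDNF samples. Both sums, mostly miR-9a-5p and miR-21-5p, were lowest in replicate 3 of each group. Blood and vascular miRNAs took 535 to 650 RPM (control) and 558 to 644 RPM (BDNF), with counts for all 12 strands in at least one sample. Most of this sum was miR-486 (437, 384 and 451 RPM in control and 402, 414 and 489 RPM in BDNF replicates 1 to 3). MiR-451-5p, from the same list, stayed between 1.85 and 4.52 RPM.

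In the main comparison, edgeR's quasi-likelihood test found no change with BDNF for any of the 3 strands abundant enough to be tested, at an adjusted P-value of 0.05. Of the 336 miRNAs that reached 10 RPM in the mean of either group, 0.0% were called. At the study's unadjusted threshold of 0.05 again none of the 3 was called, against 2.98% of all tested, 10 miRNAs. DESeq2 called 0 miRNAs adjusted and 12 unadjusted, none of them among the 3. MiR-134-5p, miR-138-5p and miR-138-2-3p passed the filter, and miR-134-3p and miR-138-1-3p did not. The filter ran between the miR-138 3p strands, since the higher group mean was 9.71 RPM for miR-138-1-3p and 10.9 RPM for miR-138-2-3p. With the replicate block, unadjusted P-values fell below 0.05 for miR-138-5p and miR-138-2-3p, both lower with BDNF, where 12.8% of all tested miRNAs were called in that direction, 7.74% in the other and 20.5% in all. None of the 3 passed adjustment in that fit, in which the share called over all tested was 0.0%.

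**Figure D1:**
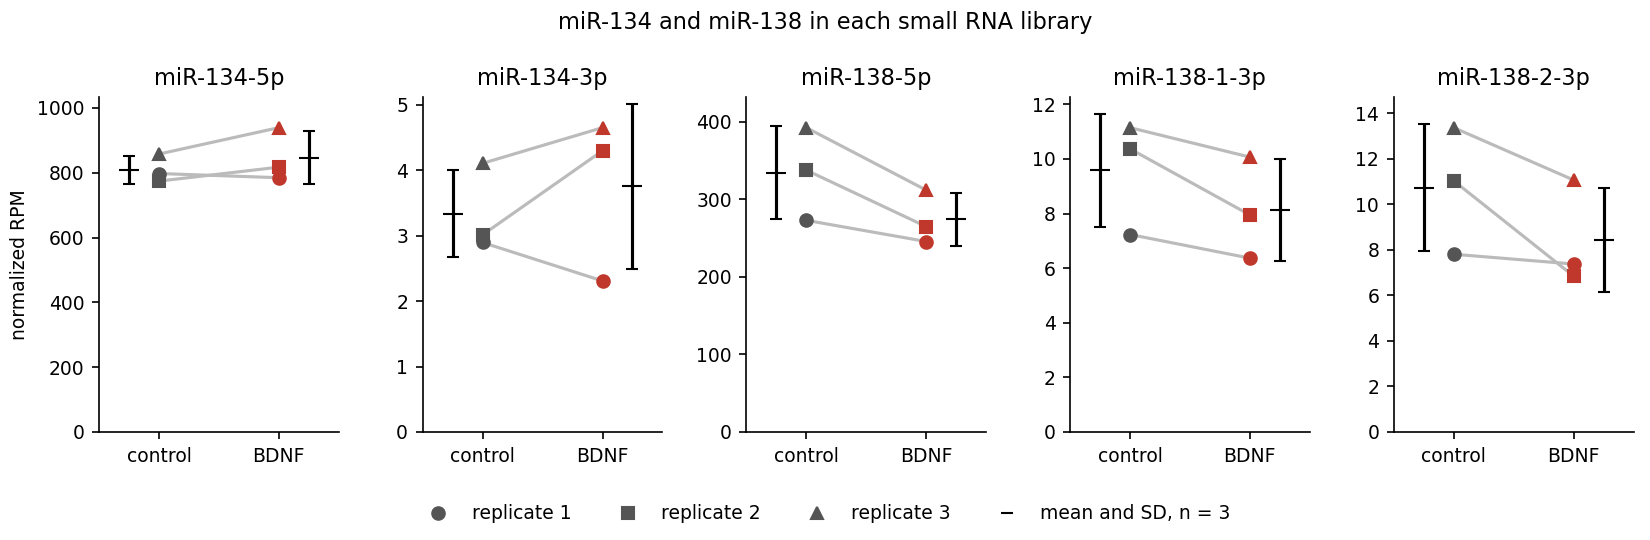
Normalized RPM (y axis, from 0) of each miR-134 and miR-138 strand in control and BDNF samples (x axis). Symbols mark the replicate number, grey lines join samples with the same number, and bars give the mean ± SD of 3 samples; the lines of all 3 miR-138 strands fall, while those of miR-134 go in both directions.

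MiR-134-5p, the dominant strand of miR-134, was the most abundant of the 5, in place 79 of 649 by mean RPM. Control samples 1, 2 and 3 held 8271, 9257 and 9619 reads of it, and BDNF samples 8504, 8945 and 12127. This gave 798, 774 and 858 normalized RPM in control samples and 785, 817 and 939 in BDNF samples. The groups overlapped, and replicate 3 was the highest sample of each. It averaged 810 ± 43 normalized RPM without and 847 ± 81 with BDNF (SD, n = 3 per group). The log2 fold change (BDNF/control) was 0.06 (standard error 0.10), with a 95% interval from -0.18 to 0.31 and an adjusted P-value of 0.999 in edgeR (unadjusted 0.56). Its direction depended on a single library, as the log2 fold change was -0.02 without BDNF replicate 3. With the replicate block the interval narrowed to between -0.09 and 0.21, with an unadjusted P-value of 0.37 in edgeR. Neither interval for miR-134-5p reached the log2 fold change of -0.29 estimated for miR-138-5p, which is itself uncertain. Without the block the intervals of these strands overlapped (-0.68 to 0.10 for miR-138-5p), and with the block they did not. Setting intervals side by side is not a test of the difference between the strands. Over the 6 libraries its log2 level had an SD of 0.10, which was in place 284 of 336 from the most variable miRNA down.

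MiR-134-3p, the strand mostly discarded from the miR-134 duplex, had 30, 36 and 46 reads in control samples 1, 2 and 3 and 25, 47 and 60 in BDNF samples. Counting error alone gives a coefficient of variation of 15.7% at this depth. Its level was 3.34 ± 0.67 normalized RPM without and 3.75 ± 1.26 with BDNF (SD, n = 3 per group), and the groups overlapped. The BDNF/control ratios were 0.80, 1.43 and 1.13 in replicates 1 to 3, and each exact 95% counting interval included 1. When the filter was lifted, its log2 fold change was 0.18 (95% interval -0.49 to 0.86) with an unadjusted P-value of 0.56 in edgeR, where 2.31% of 649 miRNAs were called at 0.05.

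MiR-138-5p, the strand that both Mir138 loci give, was in place 127 of 649. Control samples 1, 2 and 3 held 2830, 4037 and 4401 reads of it, and BDNF samples 2662, 2899 and 4027. The normalized RPM were 273, 338 and 392 in control and 246, 265 and 312 in BDNF samples. Each BDNF sample lay below the control sample of its number, but BDNF replicate 3 was higher than control replicate 1, so the groups overlapped. The exact permutation test gave P = 0.2 on log2 normalized RPM and 0.3 on log2 RPM (two-sided, n = 3 per group, smallest possible 0.1). The edgeR log2 fold change of -0.29 (95% interval -0.68 to 0.10) was larger in size than that of all but 30 of the 336 tested miRNAs and had an unadjusted P-value of 0.12. Within replicate numbers, BDNF/control was 0.90 (exact 95% counting interval 0.85 to 0.95), 0.78 (0.75 to 0.82) and 0.79 (0.76 to 0.83). None of the 3 intervals reached 1, and they cover counting error only. With the replicate block in edgeR the 95% interval of the log2 fold change was -0.44 to -0.11, in place 11 of 336 by P-value, with an adjusted P-value of 0.14 (unadjusted 0.0046).

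Whether miR-138-5p passed adjustment depended on the filter and the tool. When the filter was lifted and the block kept, its adjusted P-value was 0.049 in edgeR, one of 20 miRNAs called in that fit (3.08% of 649), and 0.18 in DESeq2. Leaving out both samples of replicate 1, 2 or 3 in that fit moved the adjusted P-value to 0.054, 0.77 and 0.70. With the filter kept, DESeq2 with the block gave an adjusted P-value of 0.084. The log2 fold change ranged from -0.39 to -0.14 when single samples were left out of the fit without the block. It was smallest in size without control replicate 3, the library with the highest miR-138-5p.

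**Figure D2:**
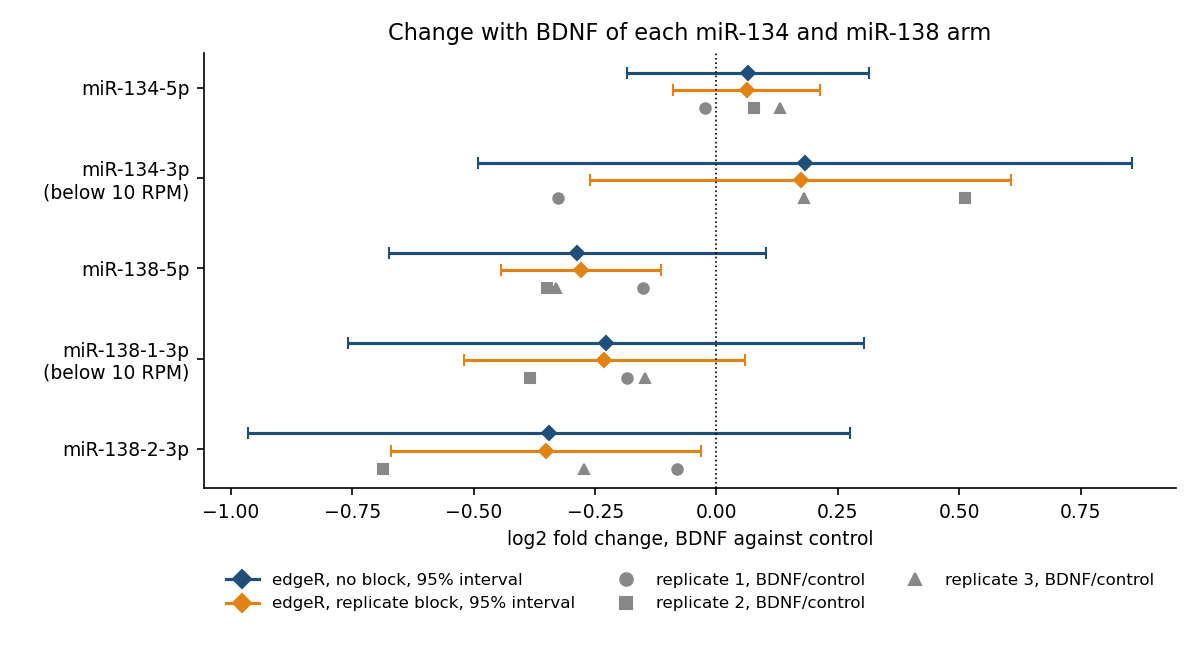
Log2 fold change, BDNF against control (x axis), of each strand (y axis). Diamonds with bars are edgeR estimates with 95% intervals, without (blue) and with (orange) the replicate block, and grey symbols are the ratios within each replicate number; the strands below 10 RPM come from the fits without the filter. With the block, the intervals of miR-138-5p and miR-138-2-3p lie below 0.

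MiR-138-1-3p, made only from Mir138-1, had 75, 124 and 125 reads in control samples 1, 2 and 3 and 69, 87 and 130 in BDNF samples. Its level was 7.23, 10.4 and 11.1 normalized RPM in control and 6.37, 7.95 and 10.1 in BDNF samples, with overlapping groups. With the filter lifted, its log2 fold change was -0.23 (95% interval -0.76 to 0.30), with an unadjusted P-value of 0.36 in edgeR, and 0.11 with the block, where 13.6% of the 649 were called. Without BDNF replicate 1 the log2 fold change was -0.051, and without BDNF replicate 3 it was -0.43. It was -0.39 without control replicate 1 and -0.10 without control replicate 3. MiR-138-2-3p, made only from Mir138-2, had 81, 132 and 150 reads in control and 80, 75 and 143 in BDNF samples. This corresponded to 7.81, 11.04 and 13.4 normalized RPM in control and 7.38, 6.85 and 11.1 in BDNF samples, and here too the groups overlapped. Its log2 fold change was -0.34 (95% interval -0.96 to 0.27) with an unadjusted P-value of 0.23 in edgeR. With the block the log2 fold change was -0.35 (95% interval -0.67 to -0.03), with an adjusted P-value of 0.22 in edgeR (unadjusted 0.035). DESeq2 with the block gave an unadjusted P-value of 0.24 for miR-138-2-3p, so this call rested on the tool.

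All 3 miR-138 strands were lower with BDNF in each of the 3 replicate numbers, a pattern held by 23.8% of the tested miRNAs. The strands come from the same 2 hairpins and from the same libraries, and are not independent of each other. Reads of single strands cannot separate fewer cells that carry a miRNA from less of it in each cell.

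The 5p strand prevailed for both miRNAs, more so for miR-134. MiR-134-3p made up 0.36, 0.39 and 0.48% of the miR-134 counts in control replicates 1 to 3 and 0.29, 0.52 and 0.49% in the BDNF replicates. In miR-138, the 3p strands together made up 5.22, 5.96 and 5.88% in control and 5.30, 5.29 and 6.35% in BDNF samples. The shares of the 6 libraries had an SD of 0.46 percentage points in miR-138, where counting error alone gives 0.39, and of 0.089 against 0.068 in miR-134. The log2 5p/3p ratio of miR-138 was 4.05 ± 0.11 without and 4.06 ± 0.16 with BDNF (SD, n = 3 per group), and that of miR-134 was 7.92 ± 0.20 and 7.86 ± 0.45. The changes of 0.01 (95% interval -0.36 to 0.39) for miR-138 and -0.06 (-0.68 to 0.56) for miR-134 had adjusted P-values of 0.97 in limma, fitted over 148 precursors. Neither was called at an unadjusted 0.05, against 4.05% of precursors. With the replicate block neither was called, against 12.2% of precursors. Within replicate numbers, the summed 3p strands of miR-138 had BDNF/control ratios of 0.91, 0.69 and 0.86, beside the 0.90, 0.78 and 0.79 of miR-138-5p.

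**Figure D3:**
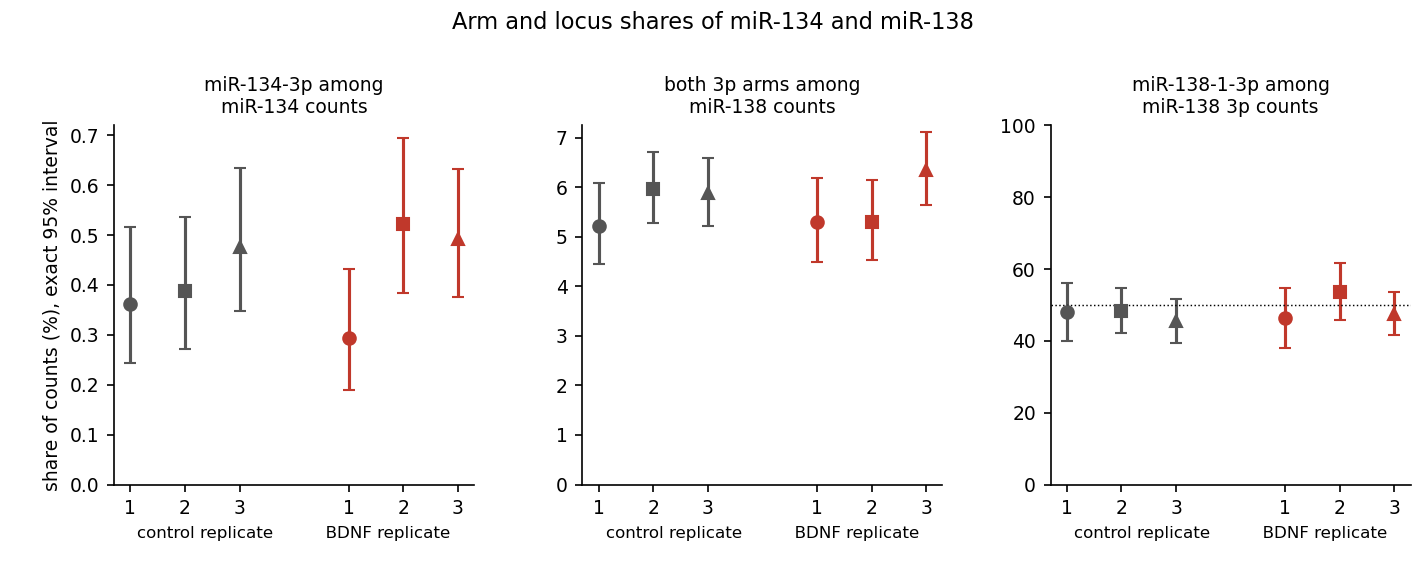
Share of counts in percent (y axes, from 0) in each of the 6 libraries (x axes: control and BDNF replicates 1 to 3), with exact 95% intervals for counting error: miR-134-3p among miR-134 counts, both 3p strands among miR-138 counts, and miR-138-1-3p among the 3p counts of miR-138. The intervals of the libraries overlap in each panel, and the dotted line in the last marks equal counts from both loci.

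The 3p strands give a view of each Mir138 locus. MiR-138-1-3p held 48.1, 48.4 and 45.5% of the miR-138 3p counts in control replicates 1 to 3 and 46.3, 53.7 and 47.6% in BDNF replicates. In each library the exact 95% interval included 50%. The SD over the 6 libraries was 2.89 percentage points, less than the 3.56 that counting error alone gives, so no difference between libraries in the share of the loci was detectable at 149 to 275 counts each. The log2 ratio of miR-138-1-3p to miR-138-2-3p was -0.15 ± 0.09 without and -0.05 ± 0.23 with BDNF (SD, n = 3 per group). The exact permutation test of this difference of 0.11 gave P = 0.6 (two-sided, n = 3 per group). Its direction rested on a single library, since it was -0.020 without BDNF replicate 2, and it was 0.19 without BDNF replicate 1 and 0.055 without control replicate 3. Ligation and amplification can favour some sequences, so near-equal counts of different strands need not mean equal output of the loci.

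The miR-138 strands moved together from library to library. Over the 6 libraries, r of log2 normalized RPM was 0.94 between miR-138-5p and miR-138-1-3p, 0.95 between miR-138-5p and miR-138-2-3p and 0.91 between the 3p strands. The log2 ratio of miR-138-5p to the summed 3p strands had an SD of 0.12, near the 0.11 of counting error alone, while miR-138-5p by itself had 0.25 and the summed 3p strands 0.35. Between miR-134-5p and miR-134-3p, r was 0.79, and between miR-134-5p and miR-138-5p it was 0.35. These values describe 6 libraries that share replicate numbers and are given without a test.

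Replicate number held a larger share of this variation than BDNF for each of the 5 strands. With 3 numbers against 2 conditions it has more degrees of freedom, which by itself gives it a larger share. The shares were not corrected for this. In the sum of squares of log2 normalized RPM, replicate number held 78.1% for miR-134-5p, 74.3% for miR-134-3p, 59.6% for miR-138-5p, 80.7% for miR-138-1-3p and 63.9% for miR-138-2-3p, near the median of 70.9% over tested miRNAs. The condition held 36.6% for miR-138-5p and 10.5% for miR-134-5p, where the median was 7.7%. Each strand was highest, as the mean of its control and BDNF samples, in replicate 3 and lowest in replicate 1. For miR-138-5p these means were 259, 301 and 352 normalized RPM in replicates 1 to 3, and for miR-138-2-3p 7.60, 8.95 and 12.2. Summed glial miRNAs ran the other way, with 7412, 6736 and 5686 RPM in control and 7613, 7157 and 5724 RPM in BDNF replicates 1 to 3. Nearly all of this sum was miR-21-5p. MiR-338-5p fell in the same order (53.6, 50.8 and 40.2 RPM in control and 53.9, 52.2 and 44.2 RPM in BDNF samples). MiR-219a-5p did not (25.5, 23.3 and 23.6 RPM in control and 24.1, 25.5 and 26.1 RPM in BDNF samples), and the remaining glial strands were mixed. Summed neuronal miRNAs were also lowest in replicate 3 of both groups, at 348455 RPM in control and 386916 RPM in BDNF samples. Most of this sum was miR-9a-5p, and the other neuronal strands were mixed. In replicate 3, miR-153-3p was at its lowest (19.6 RPM in control and 19.8 RPM in BDNF samples). MiR-124-5p was at its highest there (822 RPM in control and 829 RPM in BDNF samples). The part of either list in the replicate differences was not tested.

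**Figure D4:**
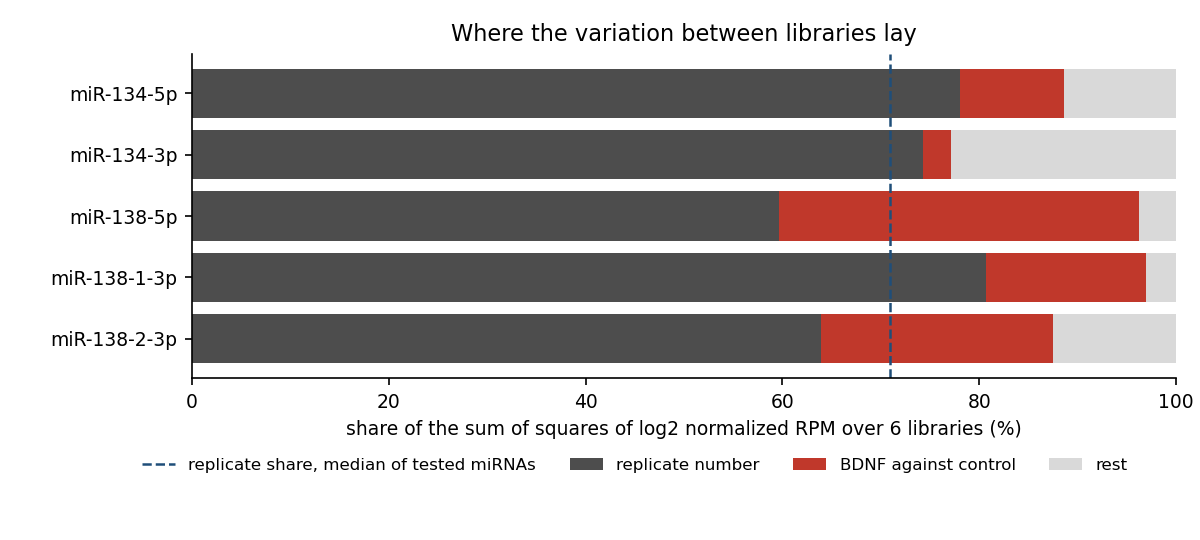
Share in percent (x axis) of the sum of squares of log2 normalized RPM over the 6 libraries held by replicate number, by BDNF against control and by the rest, for each strand (y axis). The dashed line marks the median replicate share of 70.9% over the 336 tested miRNAs; the share of the condition is largest for miR-138-5p, at 36.6%.

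The ratio of miR-134-5p to miR-138-5p within a library does not depend on library scaling, and was chosen after the values had been seen. There were 2.92, 2.29 and 2.19 reads of miR-134-5p per read of miR-138-5p in control replicates 1 to 3 and 3.19, 3.09 and 3.01 in BDNF replicates. All BDNF samples lay above all control samples. The log2 ratio was 1.29 ± 0.22 without and 1.63 ± 0.04 with BDNF (SD, n = 3 per group). The difference of 0.34 had an exact permutation P of 0.1, the smallest that 3 against 3 samples allow, and was 0.13, 0.43 and 0.46 within replicates 1 to 3. Of the ratios of the other 335 tested miRNAs to miR-138-5p, 16.7% also had groups that did not overlap, all of them higher with BDNF. Of the ratios of the others to miR-134-5p, 9.55% did not overlap, and 8.36% were lower with BDNF, the direction that miR-138-5p took.

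The genes next to Mir134 showed no shared change. Of the neighbours Mir382, Mir668 and Mir485, miR-382-5p had a log2 fold change of 0.00 (standard error 0.10) and miR-485-5p of -0.12 (standard error 0.11). MiR-668 had 0.18 (standard error 0.16), with BDNF/control ratios of 1.21, 1.12 and 1.09 in replicates 1 to 3. Its unadjusted P-value was 0.28 without and 0.0497 with the block in edgeR, and its adjusted P-value with the block was 0.24. Over the 6 libraries r with miR-134-5p was 0.85 for miR-668 and for miR-485-3p, 0.28 for miR-382-5p and -0.81 for miR-382-3p. Strands from a single cluster thus differed in their pattern over the same libraries.

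The rest of the miR-379/miR-410 cluster, miRNAs from a single imprinted domain several of which act in dendrites, had 66 listed strands, of which 42 were tested. All 42 lie between Mir379 and Mir410 in RefSeq, while 2 of the untested ones, miR-679 and miR-3072, were not found there. Of these 42, 13 had log2 fold changes above 0 and 29 below, with a median of -0.04. Of all 336 tested miRNAs, 165 were above 0 and 171 below, with a median of -0.0015. The strands of the cluster come from the same libraries and are not independent of each other. None passed adjustment, and 1 of 42 was called at the unadjusted threshold, where 2.98% of all tested were. This was miR-410-3p, with a log2 fold change of -0.23 (standard error 0.10) and an unadjusted P-value of 0.0496 in edgeR. With the block 3 were called higher and 5 lower, which is 8 of 42 where 20.5% of all tested were called. MiR-487b-3p, also of this cluster, had a log2 fold change of -0.27. Its unadjusted P-value in edgeR was 0.096 without the block and 0.0040 with it, adjusted 0.13 with the block. MiR-376c-3p had -0.27 and miR-329-3p, a miRNA known from dendrite growth, had -0.24 on the same scale, with unadjusted P-values of 0.16 in edgeR without the block. With the block their unadjusted P-values in edgeR were 0.022 and 0.040, and 0.17 and 0.23 after adjustment.

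Other miRNAs studied in dendrites and spines were listed with 47 strands, 35 of them tested and 5 of these also in the cluster. Their log2 fold changes ran from -0.28 to 0.20 with a median of 0.01, 19 above and 16 below 0. None was called at either threshold without the block, and with it 2 of 35 were called higher and 4 lower at the unadjusted threshold, where 7.74% and 12.8% of all tested were. The smallest unadjusted P-value was that of miR-125b-1-3p, which averaged 462 ± 11 normalized RPM without and 532 ± 27 with BDNF (SD, n = 3 per group), with all BDNF samples above all control samples (7.14% of tested miRNAs did not overlap, 3.57% in this direction) and an unadjusted P-value of 0.052 in edgeR. MiR-384-5p, which is known to be regulated in plasticity of hippocampal synapses, had a log2 fold change of -0.25, and miR-34a-5p of -0.28. Their unadjusted P-values in edgeR were 0.10 and 0.23 without the block. With the block they were 0.014 and 0.0094, each 0.17 after adjustment. For miR-125b-1-3p the edgeR fit with the block gave an unadjusted P-value of 0.017, also 0.17 after adjustment.

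**Figure D5:**
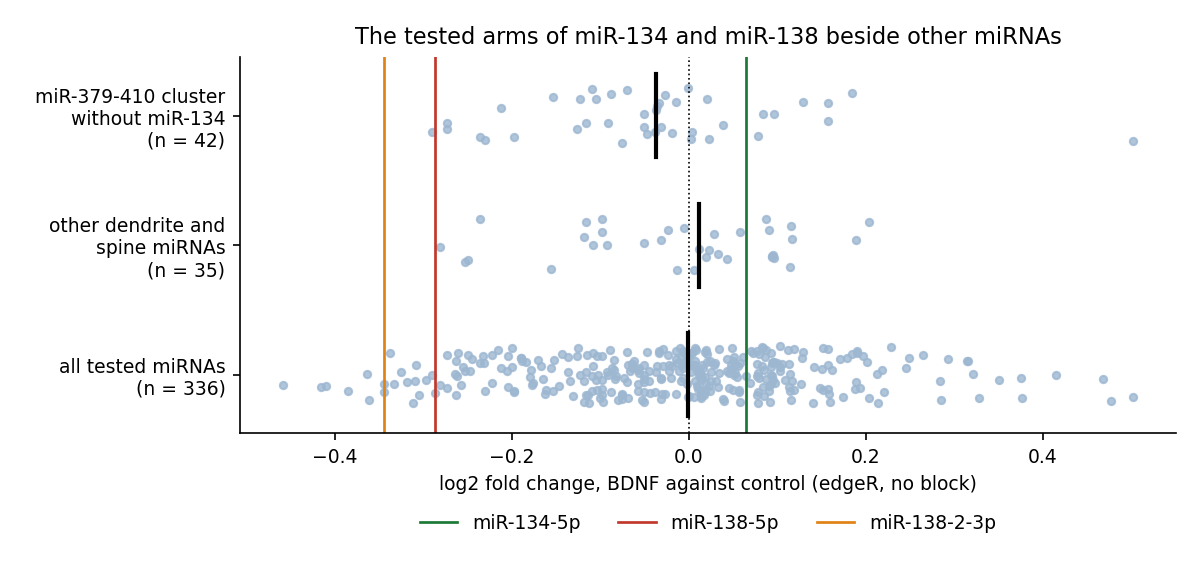
Log2 fold change in edgeR without a block (x axis) of all 336 tested miRNAs, of 35 other dendrite and spine miRNAs and of 42 miR-379/miR-410 cluster miRNAs (rows of dots, vertical scatter without meaning), with black bars at the medians. Vertical lines mark miR-134-5p at 0.06, miR-138-5p at -0.29 and miR-138-2-3p at -0.34.

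The miRNAs most like miR-134-5p over the 6 libraries, by Pearson's r of log2 normalized RPM, were miR-30c-1-3p (0.97), miR-543-3p (0.96), miR-504 (0.95), miR-330-5p (0.94) and miR-433-3p (0.94). Of these miR-543-3p belongs to the miR-379/miR-410 cluster, whose 42 tested strands had a median r of 0.10 with miR-134-5p. Those most like miR-138-5p were miR-487b-3p (0.98), miR-107-3p (0.97), miR-23b-3p (0.97), miR-193b-3p (0.97) and miR-301b-3p (0.97), and miR-138-2-3p reached 0.95. All 5 had log2 fold changes below 0, between -0.42 and -0.18. They were picked by r over both groups, which includes the difference between groups, so their shared sign is partly set by the choice. With group means removed, their r with miR-138-5p was 0.95 to 0.98. The median r over the other 335 tested miRNAs was -0.02 for miR-134-5p and -0.03 for miR-138-5p, with quartiles of -0.65 and 0.72 for miR-138-5p. So wide a spread in 6 libraries with shared replicate numbers means that a high r is common here, and no test is given.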

How the data were processed

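Small RNA of 6 samples of cultured rat cortical neurons was sequenced in a single lane. The authors removed the adapter and poor or short reads and mapped the rest with Miraligner to miRBase's rat miRNAs, allowing a mismatch and shifted ends. The deposited values are raw counts for 649 miRNAs. Tool versions are not given in the sources used here. Files were joined by miRNA name, since their rows are not all in the same order. RPM were computed from the sum of all counts of a sample. Counts were tested with edgeR 4.0.16 (quasi-likelihood, TMM) in R 4.3.3 for the 336 miRNAs whose mean reached 10 RPM in either group, without a replicate block, because the methods name none. P-values were adjusted by Benjamini-Hochberg over all miRNAs tested. The standard error is the size of the log2 fold change divided by the root of the F statistic. Ratios of 5p to 3p strands were tested with limma 3.58.1 on log2 ratios of counts with 0.5 added, for 148 precursors whose strands each had a mean of at least 10 counts in one condition, and miR-138-5p was set against the sum of its 3p strands. Single values were compared by exact permutation (two-sided). Intervals of shares and of ratios within a replicate number are exact (Clopper-Pearson, 95%) and cover counting error only, since reads without molecular identifiers are not independent molecules.

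Samples were grouped by their titles. Replicate numbers were taken to pair the samples, because each same-numbered pair deviated together (r from 0.49 to 0.89), although no label says what a number marks. Libraries of the same condition differed by far more than sampling noise, with chi-square of at least 220 per degree of freedom. Named miRNAs are the 5 strands, neighbours of Mir134, the 4 smallest P-values of each list and the 5 of highest r. The members and lists were chosen with earlier results of these data known. Alternatives were DESeq2 1.42.0, library size only, no filter, the replicate block, an equal-variance model, pseudocounts and leaving out samples. The edgeR and limma fits were tested on simulated data. For the fits without a block, the simulated samples held no shared differences between replicate numbers, unlike these data. Those simulations therefore do not show how the fits without a block behave here.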

Additional observations from a re-analysis of the deposited data

How the results depend on the processing

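The number of miRNAs with an unadjusted P-value below 0.05 was 10 in edgeR without a block, 6 with library size only, 69 with the replicate block, 47 in DESeq2 with the replicate block and 88 without the filter and with the replicate block, and 3 to 32 when single samples were left out, lowest without control replicate 2 and highest without control replicate 1. After adjustment it was 0, but 3 in DESeq2 with the replicate block, and 20 without the filter and with the block. For 5p/3p ratios the 6 precursors at the unadjusted threshold became 3 with a minimum of 10 RPM and 18 with the replicate block, and 4 to 23 when single samples were left out.

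MiR-138-5p was below 0 in all 13 alternatives of the level fit. Its adjusted P-value, 0.999, ran from 0.049 to 0.9997 over them, and only the fit without the filter and with the replicate block (log2 fold change -0.27) fell below 0.05. In that fit, DESeq2 gave a log2 fold change of -0.26, and leaving out a replicate number gave -0.30 to -0.23, all with adjusted P-values above 0.05. MiR-138-2-3p stayed below 0 (-0.60 to -0.22 when single samples were left out) and had no value without control replicate 3, where it missed the filter. The direction of both miR-134 strands turned without BDNF replicate 3, to -0.016 for miR-134-5p (range -0.016 to 0.12) and -0.019 for miR-134-3p (-0.019 to 0.46). The 5p/3p ratio turned with the samples left out, with a change of -0.32 to 0.094 for miR-134 and -0.033 to 0.11 for miR-138. The causes were not tested. The ratio of miR-134-5p to miR-138-5p gave 0.26 to 0.47 when single samples were left out, and the mean difference within the pairs of the replicate block was 0.34. The fits without the filter for strands below 10 RPM, the DESeq2 fits with the block and this ratio were added after the data had been seen. Among the strands and ratios described here, the block changed no other adjusted call. Depth limits miR-134-3p most, at 25 to 60 reads per sample.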
